A study of Mus musculus with 4 samples.

Results

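The transcription factors that induce epithelial-mesenchymal transition (EMT) were examined in 4 mouse oral cancer cell lines. The group was defined by name, as Zeb1, Zeb2, Snai1, Snai2, Twist1, Twist2, Prrx1, Tcf4, Foxc2 and Tcf3, and 9 of these 10 genes were found by symbol among 19505 named genes. Zeb2 was not analysed here. Each line gave RNA for 1 Affymetrix Mouse Clariom S array. All 4 lines go back to tongue tumors that a combination of the carcinogen 4-NQO (4-nitroquinoline 1-oxide) with arecoline, an areca nut alkaloid, had induced in C57BL/6 mice, and all were grown as attached cultures in DMEM with fetal bovine serum. NHRI-HN1 was obtained by sphere culture of M1-2, and NHRI-HN2 by sphere culture of M2-3. M1-2 and M2-3 came from separate tumors and had not been through sphere selection. The study set NHRI-HN1, its line that grew tumors in immunocompetent mice, against M1-2, NHRI-HN2 and M2-3. The labels describe no cloning step, so a line may hold a mixture of cells, and in such bulk RNA fewer cells of a type and less RNA per cell cannot be told apart.

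EMT is the program by which epithelial cells give up cell-cell junctions and polarity and take on a migratory, mesenchymal state. A small set of DNA-binding proteins drives it: the zinc-finger repressors of the SNAI and ZEB families bind E-box sequences in promoters of epithelial genes such as Cdh1 (E-cadherin), while the basic helix-loop-helix Twist proteins, their E-protein partners, the homeobox factor Prrx1 and the forkhead factor Foxc2 act beside them. In squamous carcinoma these factors are known to be expressed in different combinations, and Snai2 is also expressed in normal basal keratinocytes.

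Expression is given as deposited and was read as log2. Because the maxima exceed what log2 of a scanner reading normally reaches, a difference of 1 may stand for something other than a 2-fold change, and the values carry no detection call. The array medians were 4.75 in NHRI-HN1, 4.72 in M1-2, 4.67 in NHRI-HN2 and 4.53 in M2-3, and the lower quartiles lay between 3.02 and 3.16. Levels were compared between lines for each gene and not between genes. The endothelial list of 5 genes and the leukocyte list of 6 measured genes had medians between 2.76 and 3.25 in every line. The keratinocyte list, 7 measured genes of 8, had a median of 3.71 in NHRI-HN1, against 13.53 in M1-2, 16.06 in NHRI-HN2 and 16.31 in M2-3. The defining basal keratins did not follow the oral epithelial origin of NHRI-HN1, where Krt14 was at 3.39 and Krt5 at 3.09, and in M1-2 Krt14 was at 15.38 but Krt5 at 4.68. By immunostaining for pan-cytokeratin and other proteins, the study read cultured NHRI-HN1 cells as carcinoma-like. It reported no alpha-smooth muscle actin in them and detected pan-cytokeratin protein in their orthotopic tumors. The RNA of Krt14, Krt5 and the actin gene Acta2 (15.74 in NHRI-HN1) is a different measure.

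The zinc-finger factor Zeb1, a repressor of epithelial genes, separated the lines by tumor of origin. Its level was 13.37 in NHRI-HN1, 11.95 in M1-2, 7.65 in NHRI-HN2 and 4.08 in M2-3. Both lines of the M1-2 tumor lay above both lines of the M2-3 tumor, and only the M2-3 value lay below its array median. The range of 9.29 over the lines was reached or exceeded by 129 of the 19505 genes. Both sphere lines stood above their parents, by 1.42 for NHRI-HN1 over M1-2 and by 3.57 for NHRI-HN2 over M2-3.

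In the SNAI family, Snai2 did not follow Zeb1, and Snai1 split the lines by tumor only over a narrow range. Snai1, an early-acting repressor of Cdh1, was at 5.38 in NHRI-HN1, 5.32 in M1-2, 3.91 in NHRI-HN2 and 4.55 in M2-3. These 4 values lay within 1.47 of each other and close to the array medians. Snai2, its paralog, was at 15.09 in NHRI-HN1, 13.90 in M1-2, 16.40 in NHRI-HN2 and 16.27 in M2-3. Snai2 thus had a level far above the array median in every line and was the only measured member with both M1-2 tumor lines below both M2-3 tumor lines.

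Among the basic helix-loop-helix factors, Twist1 split the lines by tumor. Its level was 7.37 in NHRI-HN1, 7.35 in M1-2, 4.48 in NHRI-HN2 and 4.56 in M2-3. Each sphere line stood within 0.08 of its parent, and both M2-3 tumor lines lay near their array median. Twist2, a close relative of Twist1, was at 5.01 in NHRI-HN1, 3.76 in M1-2, 3.40 in NHRI-HN2 and 2.68 in M2-3. Only the NHRI-HN1 value exceeded its array median, and the M2-3 value lay below the lower quartile, so Twist2 was dim in 3 lines. Cross-reaction between the probes of such related genes was not examined.

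The E proteins Tcf4 and Tcf3 dimerize with Twist proteins and can themselves repress E-cadherin. Tcf4, the E2-2 protein encoded apart from the Wnt effector Tcf7l2, was at 17.18 in NHRI-HN1, 15.46 in M1-2, 14.47 in NHRI-HN2 and 12.32 in M2-3. It was far above the array median in every line, and its range of 4.86 was reached or exceeded by 941 genes. Tcf3, the E2A gene, was at 10.68 in NHRI-HN1, 9.53 in M1-2, 9.20 in NHRI-HN2 and 9.26 in M2-3. For Tcf3 the lines other than NHRI-HN1 lay within 0.33 of each other.

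Prrx1, a homeobox factor of mesenchymal cells, had the widest range of the 9 measured members, 9.61, which 112 genes reached or exceeded. It was at 15.24 in NHRI-HN1, 15.22 in M1-2, 14.06 in NHRI-HN2 and 5.63 in M2-3. The pattern set M2-3 apart from the other 3 lines, and NHRI-HN1 and M1-2 differed by 0.02. Foxc2, a forkhead factor of mesenchyme, was at 5.52 in NHRI-HN1, 3.61 in M1-2, 2.23 in NHRI-HN2 and 3.70 in M2-3. Foxc2 exceeded the array median only in NHRI-HN1 and lay below the lower quartile in NHRI-HN2.

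**Figure D1:**
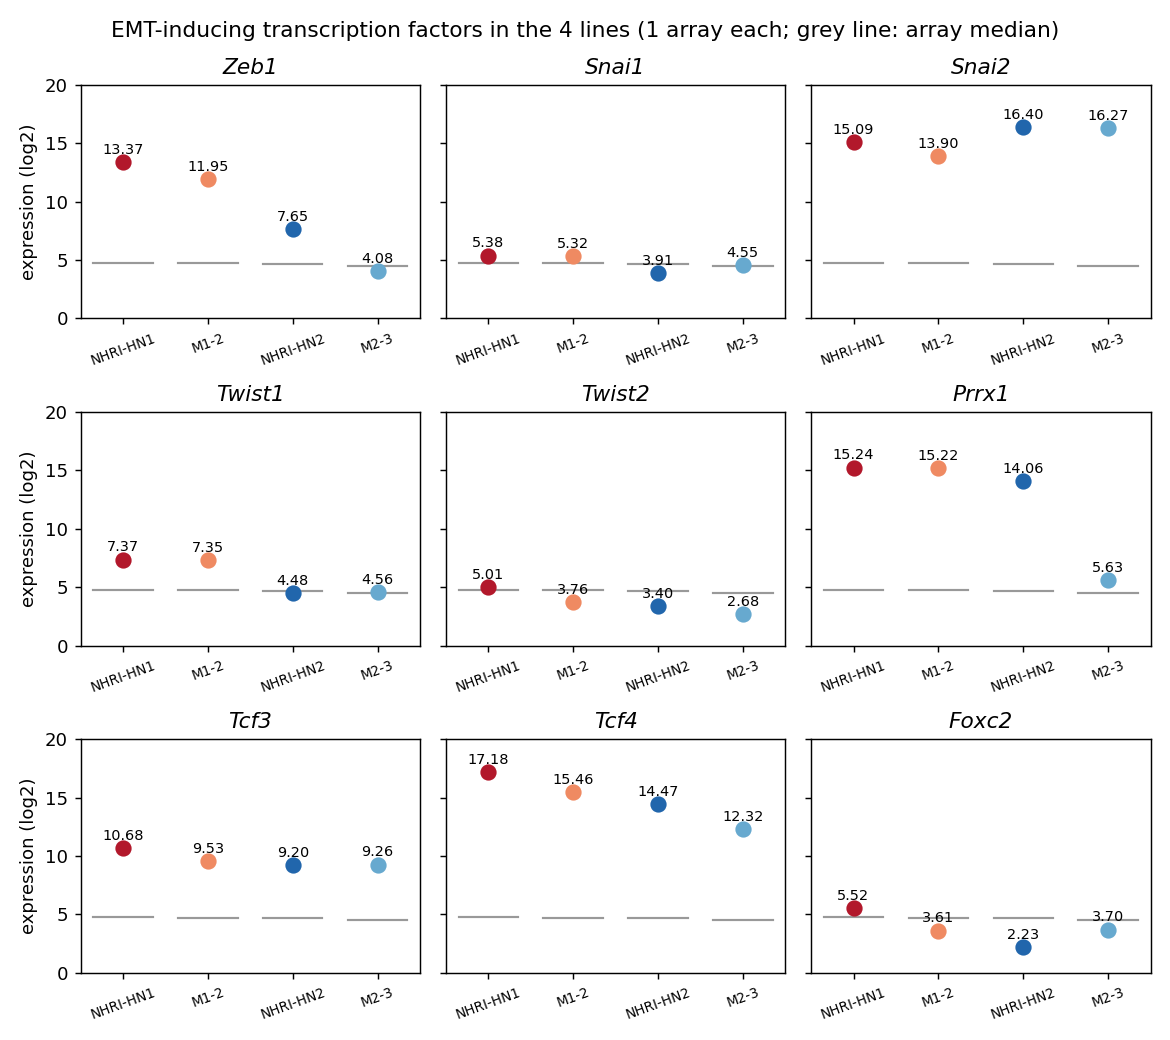
Level of each of the 9 measured factors (log2 scale, y axis) in NHRI-HN1, M1-2, NHRI-HN2 and M2-3 (x axis), 1 point per array; the grey line is the array median and there are no error bars because each line has 1 array. Zeb1 runs between 13.37 and 4.08, Prrx1 is low only in M2-3 (5.63), and Snai2 lies at 13.90 or above in all 4 lines.

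For 4 members, Zeb1, Twist2, Prrx1 and Tcf4, the lines stood in the order NHRI-HN1, M1-2, NHRI-HN2, M2-3. The same order was found in 1482 of all genes, or 7.6%. With 1 array for a line, neighbors in this order cannot be tested, and the NHRI-HN1 and M1-2 values of Prrx1 have an order only on paper, since centering each array on its median turned their difference to -0.01. The number of arrays limits the precision of every value given here.

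The tumorigenic line was set against the other 3 to ask whether the factors marked it. No member was called higher or lower in NHRI-HN1 by limma at an adjusted p under 0.05, where 0.508% of all genes were called higher and 0.113% lower. At an unadjusted p under 0.05, 2 of the 9 members passed, Twist2 and Foxc2, against 9.3% of all genes. The error in this test is the spread among 3 lines of 2 tumors, with 2 residual degrees of freedom. NHRI-HN2 derives from M2-3, and NHRI-HN1 from M1-2, which is itself among the reference lines, so the lines are not independent. A p therefore speaks of these particular lines and not of repeat cultures, and NHRI-HN1, with a single array, has to be taken as varying like the others.

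By value, 8 of the 9 members were higher in NHRI-HN1 than the mean of the others, Snai2 being the exception, and the median difference over members was 1.91, against -0.01 over all genes, or 1.19 in a fit blocked on tumor of origin. Zeb1 was at 13.37 in NHRI-HN1, against 7.89 ± 3.94 in the other lines (SD, n = 3), a difference of 5.48 with a standard error of 2.96 and a limma adjusted p of 0.661. Tcf4 differed by 3.10 with a standard error of 1.26 (limma adjusted p = 0.564), and Prrx1 by 3.60 with a standard error of 3.89 (limma adjusted p = 0.818). The error for Zeb1 and Prrx1 was thus set by the gap between M1-2 and M2-3, which was 7.87 for Zeb1 and 9.59 for Prrx1. Without M2-3 the difference was 3.57 for Zeb1 and 0.60 for Prrx1, and in the fit blocked on tumor of origin, which sets NHRI-HN1 against M1-2, it was 1.42 for Zeb1 and 0.02 for Prrx1. The dim genes came nearer to the threshold. Foxc2 was at 5.52 in NHRI-HN1, against 3.18 ± 0.82 in the other lines (SD, n = 3; limma adjusted p = 0.418), and Twist2 at 5.01, against 3.28 ± 0.55 (SD, n = 3; limma adjusted p = 0.431).

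The NHRI-HN1 value of Twist1 was 1.91 above the mean of the other lines with a standard error of 1.35, and 0.02 in the blocked fit. That of Tcf3 was 1.35 above with a standard error of 0.61, and that of Snai1 0.79 above with a standard error of 0.73. Snai2 was 0.43 below the mean (difference -0.43, standard error 1.11), but this sign turned when NHRI-HN2 was left out (0.005) and in a fit blocked on tumor of origin (1.19). The limma adjusted p-values of these 4 genes lay between 0.607 and 0.933. Counted by size alone, NHRI-HN1 stood at least 1 above all 3 other lines for Zeb1, Twist2, Tcf4, Foxc2 and Tcf3, which is 5 of 9 members beside 5.89% of all genes.

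The lines were next compared by tumor of origin, NHRI-HN1 and M1-2 against NHRI-HN2 and M2-3. The values of both groups did not overlap for 8 of the 9 members. Zeb1, Snai1, Twist1, Twist2, Prrx1, Tcf4 and Tcf3 were higher in both M1-2 tumor lines, 7 of 9 beside 25.6% of all genes, and Snai2 was lower in both, 1 of 9 beside 25.9%. Foxc2 overlapped. The values behind the counts of Snai1, Twist2 and Tcf3 are small, with gaps between the nearest lines of the tumors of at most 0.77.

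In limma, no member passed an adjusted p of 0.05 in this comparison either, where 0.123% of all genes were called higher and 0.446% lower in the M1-2 tumor lines. Unadjusted, Zeb1, Snai2, Twist1 and Tcf4 passed, 4 of 9 beside 16.8% of all genes. For this comparison, here and in the gene lists below, the error came from the difference between each sphere line and its parent. It had 2 residual degrees of freedom. Each group was a parent with its own derivative, so neither an SD nor a p measures variation between tumors. Twist1 averaged 7.36 in the M1-2 tumor lines and 4.52 ± 0.06 in the M2-3 tumor lines (SD, n = 2), a difference of 2.84 with a standard error of 0.45 and a limma adjusted p of 0.103, which was the lowest of the members. Zeb1 averaged 12.66 in the M1-2 tumor lines and 5.87 in the M2-3 tumor lines, with a difference of 6.80, a standard error of 1.30 and a limma adjusted p of 0.145. Snai2 averaged 14.50 in the M1-2 tumor lines and 16.34 in the M2-3 tumor lines, a difference of -1.84 with a standard error of 0.50 and a limma adjusted p of 0.208. For Prrx1 the difference of 5.39 had a standard error of 2.72, since NHRI-HN2 and M2-3 lay 8.43 apart. The tumor of origin and whatever else separates these cultures cannot be told apart.

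Sphere culture was examined by setting each sphere line beside its own parent. In the fit with the tumor as a block, which leaves 1 residual degree of freedom, limma called 0% of all genes at an adjusted p under 0.05 and no member. Unadjusted, 3.57% of all genes and 2 of 9 members passed. These were Zeb1, with a difference of 2.50 (standard error 0.73, limma adjusted p = 0.986), and Tcf4, with 1.94 (standard error 0.48, limma adjusted p = 0.986). Both were higher in each sphere line than in its parent.

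Single pairs have no replicate, so they are described by size. In NHRI-HN1 against M1-2, Foxc2 (1.91), Tcf4 (1.72), Zeb1 (1.42), Twist2 (1.25), Snai2 (1.19) and Tcf3 (1.15) were at least 1 higher, 6 of 9 beside 12.1% of all genes, and none was at least 1 lower, beside 12.2%. The 3 others differed by 0.06 for Snai1 and 0.02 each for Twist1 and Prrx1. In this pair the members were thus spread over modest differences, each matched or exceeded by at least 967 genes.

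In NHRI-HN2 against M2-3 the differences were concentrated in fewer genes. Prrx1 (8.43), Zeb1 (3.57) and Tcf4 (2.15) were at least 1 higher, 3 of 9 beside 6.52% of all genes. Foxc2 (-1.47) was at least 1 lower, 1 of 9 beside 5.69%. The Prrx1 difference was among the 4 largest upward differences of all genes in this pair, Prrx1 itself counted. The Zeb1 difference was reached by 130 genes and that of Tcf4 by 353.

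**Figure D2:**
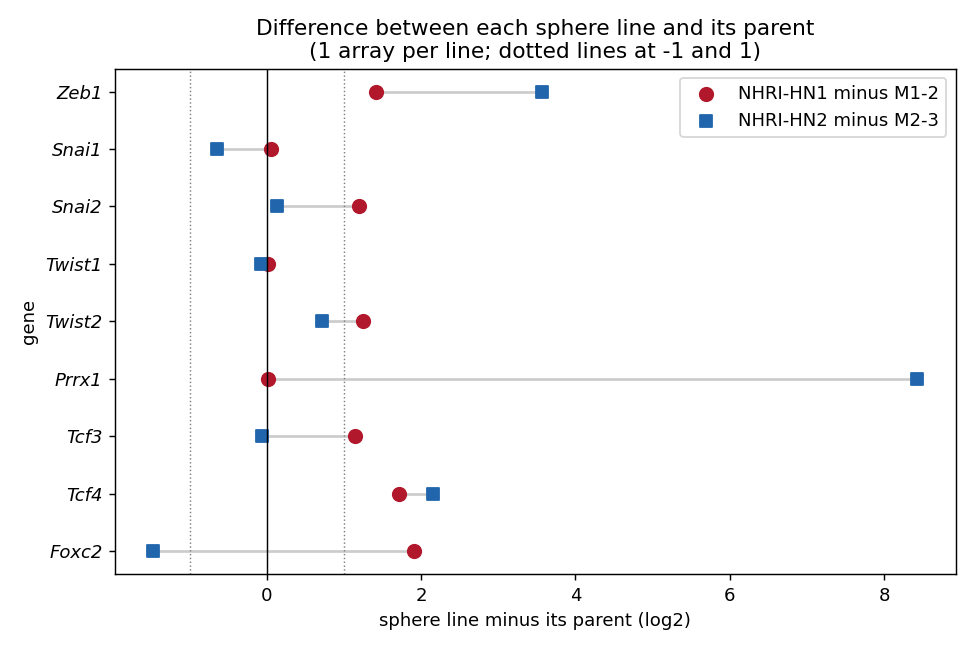
Difference between each sphere line and its parent (x axis, log2 scale) for the 9 measured factors (y axis), with NHRI-HN1 minus M1-2 as circles and NHRI-HN2 minus M2-3 as squares, 1 array per line and no error bars. The M2-3 pair has Prrx1 at 8.43 and Zeb1 at 3.57, and Foxc2 lies on opposite sides of 0, at 1.91 and -1.47.

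Epithelial genes, among them known targets of these factors, were read from a list of 40 genes known to be repressed in EMT, all of them measured. The list was chosen with earlier results of these data known, so its counts and medians describe the list. In NHRI-HN1 against the other lines, limma called 4 of the 40 lower, among the 0.113% of all genes called lower, and none higher. Cdh1, the E-cadherin gene and the best known target of the SNAI and ZEB repressors, was at 3.71 in NHRI-HN1, 14.82 in M1-2, 16.06 in NHRI-HN2 and 16.31 in M2-3, a difference of -12.02 (standard error 0.77, limma adjusted p = 0.034). The others were the desmosomal plakophilin Pkp1 (-10.71), the desmosome-associated Perp (-13.43) and the basal keratin Krt14 (-13.89). Cdh1 was thus low in NHRI-HN1 and high in the other 3 lines. These 4 calls ended, as did every call of this comparison over all genes, when M2-3 or NHRI-HN2 was left out, with no intensity trend, without dim genes, or in the fit blocked on tumor of origin. The differences themselves kept their sign in all 9 settings, and that of Cdh1 lay between -12.48 and -11.11.

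A different set of epithelial genes followed the tumor of origin. In the M1-2 tumor lines against the M2-3 tumor lines, 10 of the 40 were called lower, among the 0.446% of all genes called lower, and none higher. Epcam, an epithelial adhesion molecule, was at 2.84 in NHRI-HN1 and 3.15 in M1-2, against 11.00 in NHRI-HN2 and 10.78 in M2-3 (difference -7.90, standard error 0.47, limma adjusted p = 0.023). Esrp1, a regulator of epithelial splicing, was at 2.70 in NHRI-HN1 and 2.31 in M1-2, against 12.21 in NHRI-HN2 and 13.15 in M2-3 (difference -10.18, standard error 0.56, limma adjusted p = 0.023). Grhl2, an epithelial transcription factor that is known to oppose Zeb1, was at 2.40 and 2.52 in the M1-2 tumor lines, against 9.55 and 10.42 in the M2-3 tumor lines (difference -7.53, standard error 0.53, limma adjusted p = 0.0238). These genes were thus as low in M1-2 as in NHRI-HN1.

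The other 7 were the basal keratin Krt5, the plakophilin Pkp3, the small GTPase Rab25, the membrane serine protease St14 with its inhibitors Spint1 and Spint2, and the epithelial sorting adaptor Ap1m2. Their differences ran between -12.97 for Krt5 and -3.87 for Pkp3. These calls too rested on the M2-3 tumor pair, and none was left without NHRI-HN2 or without M2-3. Those of Pkp3 and Ap1m2 ended in further settings as well, for Pkp3 under quantile normalization (limma adjusted p = 0.0505). The difference of Epcam lay between -8.05 and -7.74 and that of Esrp1 between -10.65 and -9.71 over all settings. Over the 40 genes the median difference was -2.58 by tumor and -2.45 for NHRI-HN1 against the others, against 0.03 and -0.01 over all genes. The first was -1.59 without NHRI-HN1, and the second was -0.23 in the fit blocked on tumor of origin and -5.47 without dim genes.

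By size, the epithelial genes formed layers, counted by rules of 4 units that were chosen after the values had been seen. Both M1-2 tumor lines stood at least 4 below both M2-3 tumor lines for 10 of 40, beside 0.672% of all genes: Epcam, Esrp1, Esrp2, Grhl2, Krt5, Rab25, St14, Spint1, Spint2 and Ap1m2. NHRI-HN1 stood at least 4 below all 3 other lines for 6 of 40, beside 0.426% of all genes: Cdh1, Dsp, Pkp1, Perp, Krt14 and Cdh3. No member of the EMT factors was in either layer.

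Because the SNAI and ZEB repressors and the E proteins bind E-boxes, the promoter windows of RefSeq (GRCm38.p6, 250 bases before to 50 after the start) were searched for CACCTG and its reverse complement CAGGTG, which covers both strands. The motif was in 20.2% of all 32851 windows, and 2.88% held more than 1. Of the epithelial list 25 genes had a promoter in the table, with 33 windows, and 66.7% of these held the motif. The list was written from general knowledge of genes that EMT represses, some of which are known for such boxes, so this share is a description of the list. Of the mesenchymal genes described below, 8% of 25 windows held it. Of the measured members 5 had a promoter in the table, and 1 of these 5 windows held it, that of Snai1. Among the 10 epithelial genes called lower in the M1-2 tumor lines, 6 had a promoter in the table, 5 of these held the motif, and 4 held it more than once. The stretches of those 4 that span the motifs upstream of the start are shown because they are the motif clusters of genes that were low in both M1-2 tumor lines. Such clusters were not confined to called genes. Of the same list, Crb3 (4 motifs), Patj (3), and Grhl3, Cldn4, Cldn7 and Ocln (2 each) were not called by tumor and held more than 1 in a window. Spint1 was called and held 0, and Cdh1 had no promoter in the table. Of the 9 measured members, 7 were higher in both M1-2 tumor lines, Zeb1 and Twist1 among them, beside 25.6% of all genes. No member was called by limma in that comparison. Snai2 was lower there, at 15.09 in NHRI-HN1 and 13.90 in M1-2, against 16.40 in NHRI-HN2 and 16.27 in M2-3. The part of any factor in the levels of these genes was not tested. Capitals mark the motif, and the sequence is 5′ to 3′ on the gene's strand. The stretches are chr17:87635780-87635977 (plus strand) for Epcam, chr3:88548315-88548355 (minus strand) for Rab25, chr7:29281978-29282063 (minus strand) for Spint2 and chr9:21312334-21312426 (minus strand) for Ap1m2.
Epcam: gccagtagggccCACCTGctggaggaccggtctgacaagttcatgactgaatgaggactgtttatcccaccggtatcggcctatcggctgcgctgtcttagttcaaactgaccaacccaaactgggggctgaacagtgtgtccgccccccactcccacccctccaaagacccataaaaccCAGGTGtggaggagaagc
Rab25: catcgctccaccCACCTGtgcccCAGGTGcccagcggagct
Spint2: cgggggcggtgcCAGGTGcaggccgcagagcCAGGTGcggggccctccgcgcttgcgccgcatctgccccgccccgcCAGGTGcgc
Ap1m2: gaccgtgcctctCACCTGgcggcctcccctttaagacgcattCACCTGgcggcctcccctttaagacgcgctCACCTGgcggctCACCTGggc

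The spacing differed between these promoters. The motifs began 187 and 19 bases upstream of the start in Epcam and 64 and 53 bases upstream in Rab25. Spint2 held 3 copies, between 74 and 9 bases upstream, and Ap1m2 held 4, between 81 and 9 bases upstream, in a repeated unit. No binding was measured, so a match shows only that these letters are present.

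On the mesenchymal side, 37 of 40 listed genes were measured, and this list too was chosen with earlier results of these data known. In NHRI-HN1 against the other lines limma called 1 higher, the collagen receptor Ddr2, among the 0.508% of all genes called higher. Ddr2 was at 13.42 in NHRI-HN1, 5.14 in M1-2, 3.68 in NHRI-HN2 and 3.78 in M2-3 (difference 9.22, standard error 0.87, limma adjusted p = 0.0381). By tumor of origin limma called 1 higher, Cdh2 (N-cadherin), which was at 12.38 in NHRI-HN1 and 14.28 in M1-2, against 3.60 in NHRI-HN2 and 4.20 in M2-3 (difference 9.43, standard error 0.77, limma adjusted p = 0.0295). Cdh2 thus split the lines by tumor as Twist1 and Zeb1 did. Both calls ended without NHRI-HN2 or M2-3, and that of Ddr2 also under the other settings named for Cdh1.

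Between sphere lines and parents the mesenchymal list differed unequally. In NHRI-HN2 against M2-3, 24 of the 37 were at least 1 higher and 0 at least 1 lower, beside 6.52% and 5.69% of all genes. In NHRI-HN1 against M1-2, 8 were at least 1 higher and 18 at least 1 lower, beside 12.1% and 12.2% of all genes. The median difference of the list was 1.92 for NHRI-HN2 against M2-3 and -0.95 for NHRI-HN1 against M1-2. M2-3 stood at least 4 below all 3 other lines for 7 of the 37, beside 0.226% of all genes: Vim, Fn1, Col1a1, Col5a2, Acta2, Pdgfrb and Lox. Prrx1 was the 1 member of 9 that met the same rule. The rule with both M1-2 tumor lines at least 4 above both M2-3 tumor lines took Cdh2 and the gelatinase Mmp2, with Zeb1 as the 1 member, beside 0.256% of all genes. NHRI-HN1 stood at least 4 above all others for Col3a1, S100a4 and Ddr2 and for no member, beside 0.989% of all genes.

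**Figure D3:**
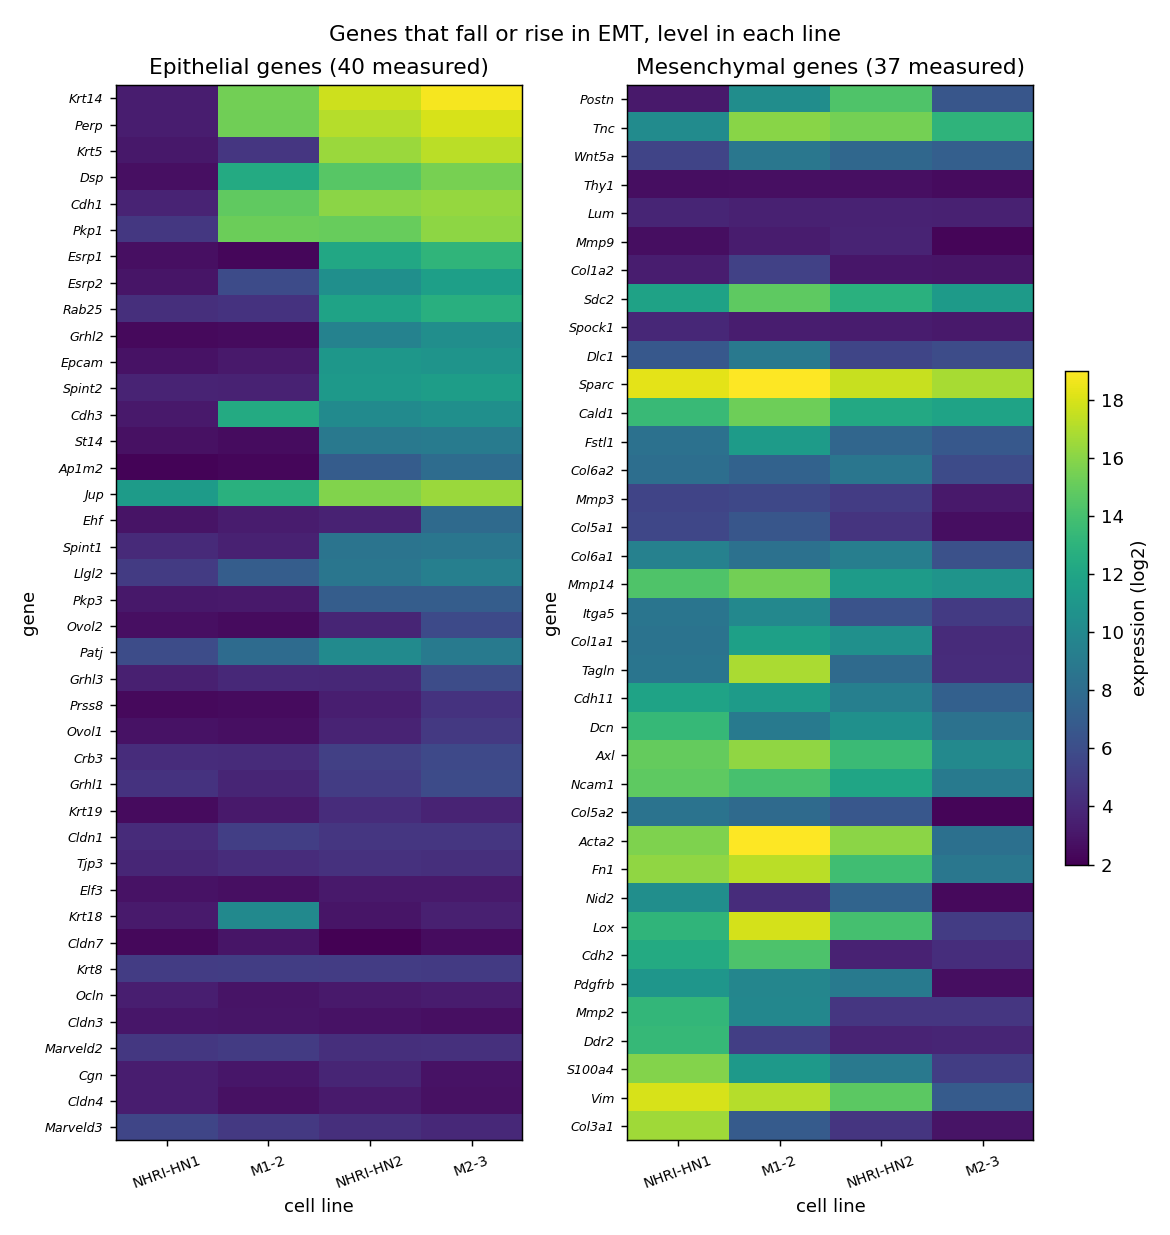
Level (color, log2 scale) of the 40 epithelial and 37 measured mesenchymal genes (rows) in NHRI-HN1, M1-2, NHRI-HN2 and M2-3 (columns), 1 array each, with rows sorted by NHRI-HN1 minus M2-3. Cdh1 is low only in NHRI-HN1 (3.71), Epcam and Esrp1 are low in NHRI-HN1 and M1-2 (3.15 or less), and Vim is low only in M2-3 (6.90).

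The genes whose profile was most like that of a member were found by Euclidean distance between centered profiles over the 4 lines, for the 4 members with the widest range. For Prrx1 the nearest was Vim, the vimentin gene (distance 1.54), at 17.99 in NHRI-HN1, 17.12 in M1-2, 14.74 in NHRI-HN2 and 6.90 in M2-3. Rhoc, Cd34, Pdgfrb and Aebp1 followed at distances between 1.60 and 1.96. For Zeb1 the nearest was Pdpn, the podoplanin gene (distance 1.25), at 14.10 in NHRI-HN1, 13.56 in M1-2, 9.41 in NHRI-HN2 and 4.32 in M2-3, followed by Hacd1, Scrn1, Irs1 and Tnnt2 at distances between 1.28 and 1.41. For Tcf4 the nearest were Sort1, Rgl1, Htr1b, Peli2 and Egln3, at distances between 0.23 and 0.42. Those of Foxc2 were Snx1, Fbxl12os, Fam214a, Naglu and Lpl, at distances between 0.26 and 0.60. A profile of 4 points leaves room for many like it, and the distances are smaller for members with a narrower range.

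Partners and inhibitors of the factors were read from a list of 24 other EMT-associated transcription factors, of which 22 were measured. None was called by limma in the comparisons of NHRI-HN1, of tumors or of sphere lines. Unadjusted, 5 of the 22 passed for NHRI-HN1 (Tcf12, Foxq1, Msx2, Id2 and Id4), beside 9.3% of all genes, and 9 of the 22 by tumor of origin (Tcf12, Foxc1, Six2, Sox4, Sox9, Sox11, Hmga2, Id4 and Fosl1), beside 16.8%. The widest ranges were those of Id4 and Prrx2. Id4, an Id protein that binds E proteins and keeps them from DNA, was at 3.89 in NHRI-HN1, 9.98 in M1-2, 14.25 in NHRI-HN2 and 11.42 in M2-3, and its relative Id3 at 4.87 in NHRI-HN1, 11.98 in M1-2, 9.64 in NHRI-HN2 and 6.88 in M2-3. Both were lowest in NHRI-HN1, but the other Id genes were not. Id2 was at 11.78 in NHRI-HN1, 9.31 in M1-2, 8.69 in NHRI-HN2 and 9.11 in M2-3, and Id1 was at 8.26 in NHRI-HN1 and between 7.70 and 8.51 in the others. Tcf12, the third E-protein gene, was at 16.31 in NHRI-HN1, 13.78 in M1-2, 12.40 in NHRI-HN2 and 12.86 in M2-3, so like Tcf4 and Tcf3 it was highest in NHRI-HN1.

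Prrx2, the paralog of Prrx1, was at 9.89 in NHRI-HN1, 12.04 in M1-2, 9.47 in NHRI-HN2 and 4.55 in M2-3, and like Prrx1 it was at least 4 lower in M2-3 than in any other line. Sox11 was at 10.20 in NHRI-HN1 and 9.01 in M1-2, against 6.09 in NHRI-HN2 and 5.39 in M2-3. Foxq1, a forkhead factor, was at 3.48 in NHRI-HN1, 7.98 in M1-2, 6.41 in NHRI-HN2 and 7.78 in M2-3, the opposite of its relative Foxc2, which was highest in NHRI-HN1.

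Corepressors and regulators of the factors varied less. Of 21 listed, 19 were measured and none was called in the 3 comparisons. The widest range was that of Ajuba, a LIM protein that serves SNAI proteins as a corepressor, at 8.93 in NHRI-HN1, 12.07 in M1-2, 11.88 in NHRI-HN2 and 12.13 in M2-3. Ezh2, the histone methyltransferase of Polycomb, was at 10.87 in NHRI-HN1, 9.36 in M1-2, 11.62 in NHRI-HN2 and 11.67 in M2-3. Of the 12 genes of the TGF-beta arm, a known inducer of these factors, none was called either. The widest range there was that of the ligand gene Tgfb3, at 11.33 in NHRI-HN1, 9.36 in M1-2, 8.91 in NHRI-HN2 and 5.25 in M2-3. That is the order of lines seen for Zeb1, Twist2, Prrx1 and Tcf4, and for 7.6% of all genes. The receptor gene Tgfbr2 was at 10.75 in NHRI-HN1, 13.85 in M1-2, 8.66 in NHRI-HN2 and 8.31 in M2-3, highest in M1-2.

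Fibroblasts and muscle cells express several of these factors, so their markers were read in the same arrays. The fibroblast list, 8 of 9 genes measured, had a median of 8.04 in NHRI-HN1, 6.095 in M1-2, 4.39 in NHRI-HN2 and 2.97 in M2-3. The order of lines was that seen for Zeb1, Twist2, Prrx1 and Tcf4, and for 7.6% of all genes. Within the list 4 of the 8 genes, Col3a1, Dcn, Pdgfrb and Fap, stood at least 1 above all other lines in NHRI-HN1. Over all genes this share was 5.89%. Col3a1 was at 16.55 in NHRI-HN1, 6.89 in M1-2, 4.59 in NHRI-HN2 and 2.92 in M2-3. Col1a1 and Col1a2 were instead highest in M1-2. Col1a1 was at 8.48 in NHRI-HN1, 11.66 in M1-2, 10.50 in NHRI-HN2 and 4.07 in M2-3. For Col1a2 the levels were 3.37 in NHRI-HN1, 5.30 in M1-2, 3.01 in NHRI-HN2 and 2.97 in M2-3. The surface marker Thy1 and the matrix proteoglycan gene Lum were below the array median in every line. The skeletal muscle list of 8 genes had a median of 11.53 in NHRI-HN1, against 4.23 in M1-2, 3.32 in NHRI-HN2 and 2.86 in M2-3. Of its genes limma called 4 higher in NHRI-HN1 (Myog, Myf5, Chrna1 and Myl1), beside 0.508% of all genes. These calls too ended under the settings named for Cdh1. Myod1 of the same list was at 3.32 in NHRI-HN1 and below the array median in every line. The 8 measured fibroblast genes include genes of the mesenchymal list, and 4 keratinocyte genes are also in the epithelial list. The part of such cell types in the levels of the EMT factors was not tested.

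**Figure D4:**
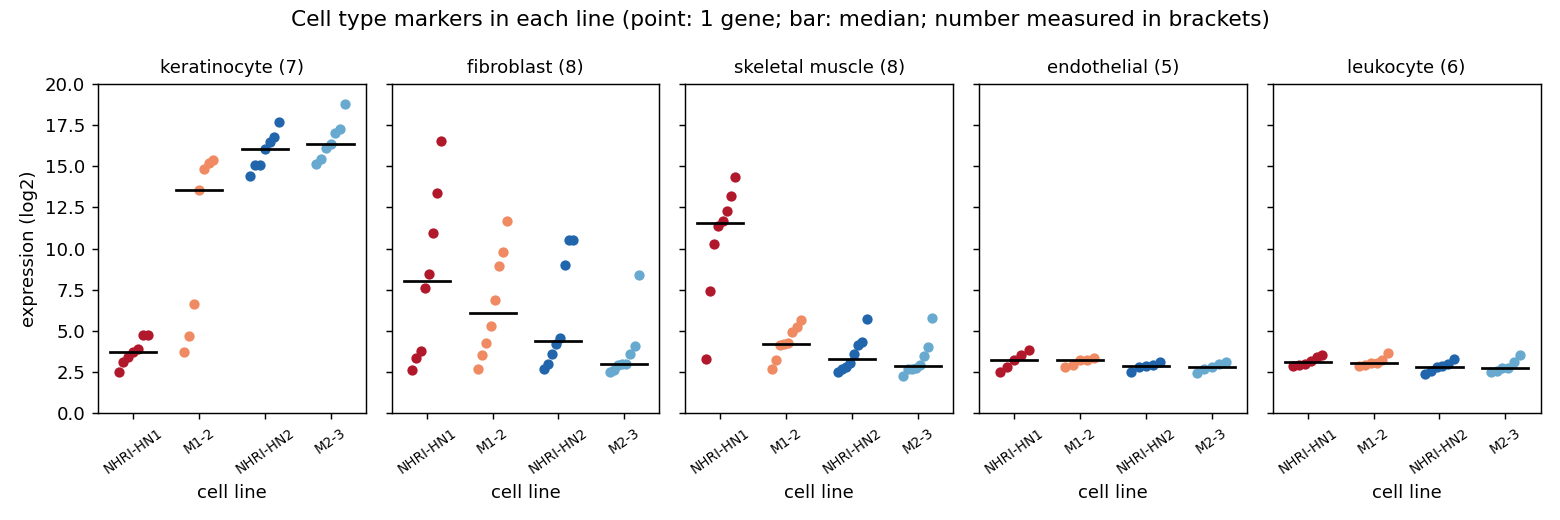
Levels (log2 scale, y axis) of cell type marker genes in NHRI-HN1, M1-2, NHRI-HN2 and M2-3 (x axis), 1 array each; a point is a gene and the bar is the median of the list. Keratinocyte genes have a median of 3.71 in NHRI-HN1 and at least 13.53 in the others, skeletal muscle genes one of 11.53 in NHRI-HN1, and endothelial and leukocyte genes stay at medians of 3.25 or less.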

How the data were processed

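Total RNA of 4 cell lines was hybridized to Affymetrix Mouse Clariom S arrays, 1 per line. The authors deposited values on a scale taken as log2 for 22206 probe sets. Partek 7 is named in the submitters' processing notes, while background correction, normalization and log base were not given in the sources used here. Symbols from the platform annotation named 19572 probe sets, and 2634 unnamed ones were left out of the tests. The mean was used for 55 genes with several probe sets, giving 19505 genes. Comparisons were fitted over all genes with limma 3.58.1 (lmFit, eBayes with an intensity trend) in R 4.3.3, and p-values were Benjamini-Hochberg adjusted. The code was tested on simulated data. Groups came from the labels. Members and lists were chosen with earlier results of these data known, and lists were written from general knowledge. Named genes were all members, the called genes of each list or otherwise up to 6 with the widest range, and the 5 nearest profiles of 4 members. Others (the layer genes, the fibroblast genes, Id1 and Id2, the unadjusted passes) were named after their values were seen. Alternatives were quantile normalization, median centering, no intensity trend, a filter on dim genes, the brightest probe set, the tumor block and leaving out lines.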

Additional observations from a re-analysis of the deposited data

Results flagged for a closer look

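Sphere lines were compared with their parents in both tumors, and 4 members stood on opposite sides of 0 in the 2 pairs. The share of all genes on opposite sides of 0 was not counted. Over all genes the median difference was 0 in NHRI-HN1 minus M1-2 and -0.06 in NHRI-HN2 minus M2-3. Each pair is 1 array against 1 array, so the differences of the members between pairs were not tested. Foxc2 was 1.91 in NHRI-HN1 minus M1-2 and -1.47 in NHRI-HN2 minus M2-3, a gap of 3.38. For Tcf3 the same values were 1.15 and -0.06, with a gap of 1.21. For Snai1 they were 0.06 and -0.64, with a gap of 0.70. For Twist1 they were 0.02 and -0.08, with a gap of 0.10, and after centering each array on its median both Twist1 differences were below 0 (-0.01 and -0.22). Foxc2 was the only one of these 4 with a difference of at least 1 in each pair, and it lay below the array median in 3 lines.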

How the results depend on the processing

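No member was called under any alternative. For NHRI-HN1 against the 3 other lines, 76 of 78 member values over 9 settings kept their direction and their side of the threshold (lowest adjusted p 0.0639). The exceptions were both of Snai2, whose difference ran between -1.25 without M1-2 and 0.005 without NHRI-HN2 (adjusted p = 1) and was 1.19 in the fit blocked on tumor (adjusted p = 0.248). In that comparison the Prrx1 difference of 3.60 was 0.60 without M2-3 and 0.02 in the blocked fit, and the Zeb1 difference of 5.48 was 3.57 and 1.42. All 78 values by tumor of origin (lowest adjusted p 0.0581) and all 51 for sphere culture over 6 settings (lowest 0.973) kept theirs. Called epithelial and mesenchymal genes kept their sign in every setting but not their calls. For NHRI-HN1 against the others, 4 epithelial genes and 1 mesenchymal gene were called, and 0 of each with no intensity trend, without dim genes or with the tumor block; leaving out single lines gave 0 to 19 epithelial and 0 to 5 mesenchymal genes, the highest without M1-2 and the lowest without NHRI-HN2 or M2-3. By tumor of origin, where 10 epithelial genes and 1 mesenchymal gene were called, leaving out single lines gave 0 to 19 and 0 to 5, with 0 without NHRI-HN2 or M2-3; without M1-2 both comparisons are the same fit, NHRI-HN1 against NHRI-HN2 and M2-3. Over all genes, NHRI-HN1 had 121 calls, with 0 under the 3 alternatives just named and without NHRI-HN2 or M2-3, and 707 without M1-2. Leaving out 1 line leaves no residual degree of freedom for sphere culture with a block and was not run. The filter on dim genes kept 9751 genes and 6 members, and dropped Snai1, Twist2 and Foxc2. Signal over background is unknown for these dim genes.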
